A study of Homo sapiens with 12 samples.

Results

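The genes described here are the numbered ZNF zinc finger genes that were well counted in U937 cells. They were selected on their mean read count: the rule took symbols made of ZNF and a number, with or without 1 closing letter, whose mean over the 6 libraries of the antagonist experiment was at least 85 reads, close to 5 CPM, the read count of a gene scaled to library size. The rule kept 259 of the 530 numbered ZNF symbols among 27825 named genes. The mean count chose the members, so their levels are given as a description and support nothing. U937 is a leukaemia line of human pro-monocytes, and RNA was sequenced in 12 libraries of it, in 4 groups of 3. In the first set, antagonist cells had an antagonist antibody to LILRB3, an inhibitory leukocyte receptor, and the control cells had nonspecific IgG. In the second set, agonist cells had an agonist antibody to LILRB3 against a nonspecific IgG group of their own. Every group, the IgG groups included, had first been given interferon gamma at 50 ng/mL. Antibody exposure lasted 72 hours, at a dose that the labels write as 5 mg/mL. All cells are of 1 line, and no label says whether the 3 libraries of a group are separate cultures. The spread that the p-values rest on may therefore be technical.

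ZNF genes form the largest family of human transcription factors. Their proteins read DNA with strings of C2H2 fingers, in which a pair of cysteines and a pair of histidines hold a zinc ion, and many carry a KRAB domain at the N terminus. The KRAB domain recruits TRIM28, which brings the histone methyltransferase SETDB1, HP1 proteins and histone deacetylases to the bound site, and the best known targets are transposable elements. The genes lie in clusters, above all on chromosome 19, that arose by tandem duplication, so neighbours can share long stretches of sequence.

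Promoters are shown for 3 members that rose with the antagonist (ZNF862, ZNF445 and ZNF589) and for the 2 that fell under every processing tried (ZNF511 and ZNF593). Each is the 120 bases before the RefSeq transcription start in GRCh38.p14, written 5′ to 3′ on the gene's strand. Capitals mark matches, on either strand, to 1 of 6 searched motifs.
ZNF862 (chr7:149838255-149838374, plus strand): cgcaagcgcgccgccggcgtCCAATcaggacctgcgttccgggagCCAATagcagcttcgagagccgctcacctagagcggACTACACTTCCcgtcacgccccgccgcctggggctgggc
ZNF445 (chr3:44477671-44477790, minus strand): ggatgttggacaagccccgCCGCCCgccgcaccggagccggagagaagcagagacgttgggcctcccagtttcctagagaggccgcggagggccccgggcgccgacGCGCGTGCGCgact
ZNF589 (chr3:48240984-48241103, plus strand): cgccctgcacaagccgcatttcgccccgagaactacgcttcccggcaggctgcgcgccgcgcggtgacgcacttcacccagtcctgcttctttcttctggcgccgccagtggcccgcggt
ZNF511 (chr10:133308794-133308913, plus strand): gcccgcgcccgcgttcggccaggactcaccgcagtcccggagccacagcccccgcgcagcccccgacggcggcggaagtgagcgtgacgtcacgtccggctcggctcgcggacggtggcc
ZNF593 (chr1:26169788-26169907, plus strand): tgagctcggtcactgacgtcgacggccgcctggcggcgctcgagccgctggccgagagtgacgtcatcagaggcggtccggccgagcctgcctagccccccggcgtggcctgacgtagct
ZNF862 held both its CCAAT boxes and a match to the site bound by ZNF143 and by the member ZNF76 (ACTACA, any base, then TTCC) within 120 bases of its start. ZNF445 held a GC box and an NRF1 match. The other 3 stretches held no match to these letters. The 6 motifs searched were the GC box GGGCGG, the CCAAT box CCAAT, the ETS core CCGGAAG, the NRF1 site (GCGC, any base, then TGCGC), the YY1 core (GCCAT, any base, then TT) and the ZNF143 and ZNF76 site, in windows of 300 bases from 250 before to 50 after the start. None of these motifs contains another. RefSeq windows matched 220 of the 259 members. CCGGAAG was in 42.3% of member windows and in 10.7% of all 27305 gene windows. All 6 motifs were in a larger share of member windows, with the GC box at 64.5% against 44.6% and the NRF1 site at 14.1% against 6.28%. Members were chosen for their reads, whereas the 27305 windows were not limited to genes counted in U937. The sets are thus unlike, and windows of genes matched for level were not searched. The ZNF143 and ZNF76 site was in 8.64% of member windows (19 of 220) and in 0.952% of all windows. It was in 4.17% of the 48 windows of members that rose, in 10% of the 10 of members that fell and in 9.88% of the 162 of members that were not called.

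The finger itself is shown for 3 members that rose (ZNF445, ZNF764 and ZNF555) and 1 that fell (ZNF845), because reads can be shared where fingers of different genes are alike. Each line is the first complete finger and linker found by pattern in the GENCODE v29 coding sequence, 84 bases in GRCh38 on the gene's strand. Capitals mark the codons of the paired cysteines (TGC or TGT) and the paired histidines (CAT or CAC).
ZNF445 (chr3:44448129-44448212, minus strand): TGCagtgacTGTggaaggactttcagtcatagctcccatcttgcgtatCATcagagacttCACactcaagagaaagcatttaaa
ZNF764 (chr16:30555809-30555892, minus strand): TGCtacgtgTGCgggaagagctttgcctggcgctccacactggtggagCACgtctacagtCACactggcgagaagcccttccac
ZNF555 (chr19:2852585-2852668, plus strand): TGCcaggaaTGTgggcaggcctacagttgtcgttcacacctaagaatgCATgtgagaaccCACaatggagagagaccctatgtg
ZNF845 (chr19:53351408-53351491, plus strand): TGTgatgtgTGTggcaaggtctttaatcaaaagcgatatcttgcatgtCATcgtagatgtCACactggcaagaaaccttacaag
Between these fingers, base identity was lowest for ZNF445 against ZNF764, at 48.8%, and highest for ZNF445 against ZNF845, at 59.5%. Over whole genes, 56 of the 259 members shared more than 5% of their 50-base windows with another GENCODE gene, and 55 had exons that overlapped a gene on the opposite strand over more than 5% of their length. The use of strand in counting is not given in the sources used here, so reads of these members may belong in part to a copy or an antisense partner.

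The antagonist libraries held 17053190, 17563755 and 17790608 reads, and the IgG libraries of the same set 18833088, 17319439 and 17155518. All 13 myeloid markers searched were counted, with a summed level of 5048 to 5419 CPM in antagonist libraries and 5353 to 6180 CPM in IgG libraries. Erythroid, epithelial or fibroblast, and T and NK markers summed to at most 4.61 CPM in antagonist libraries and 3.93 CPM in IgG libraries, with CD3G, HBB, EPCAM and KRT5 at 0 throughout. B cell markers summed to 16.5 to 18.7 CPM in antagonist libraries and 16.5 to 18.6 CPM in IgG libraries, with MS4A1 at 0. LILRB3, the receptor the antibodies bind, had 5, 2 and 3 reads in antagonist libraries and 2, 1 and 2 reads in IgG libraries. Reads were also few for MPO (2 to 17 per library) and CD14 (3 to 9). The myeloid sums of the groups overlapped, and their part in the results below was not tested.

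With the antagonist, more of the well counted ZNF genes rose than fell. Of the 259 members, 57 (22.01%) rose and 11 (4.25%) fell at an adjusted p below 0.05 in edgeR's quasi-likelihood test, while 191 were not called. Over all 13778 genes tested, 15.6% rose and 20.5% fell, and 36.1% were called in either direction. Among the 10464 other genes with a mean of at least 85 reads, 17.2% rose and 26.3% fell. The median log2 fold change, antagonist over IgG, was 0.10 over the members and -0.01 over all genes tested, and 66.8% of members had a positive value against 48.6% of all genes tested. The changes were small: 9 members were higher by more than 1.5-fold and 0 were lower by as much. Of the 10464 other genes at that level 303 were higher and 46 lower by more than 1.5-fold, and of all 13778 genes tested 853 and 160. Changes under 1.5-fold were thus the rule among other genes as well. In bulk RNA, a different share of cells expressing a gene and a different amount of RNA per cell cannot be told apart.

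Summed over the 259 members, the level was 9849, 9546 and 9783 CPM in antagonist libraries, against 8189, 8664 and 9019 CPM in IgG libraries. Every antagonist library lay above every IgG library. The members took 1.01%, 0.987% and 0.999% of the reads in antagonist libraries and 0.809%, 0.844% and 0.859% in IgG libraries. In 86 members (33.2%) all 3 antagonist libraries lay above all 3 IgG libraries, against 21.9% of all genes tested, and in 23 (8.88%) all 3 lay below, against 27.1%. The balance of the calls depended on scaling. With library totals in place of TMM, the scaling used here, 87 members rose and 2 fell, so that 97.8% of calls were higher in place of 83.8%, against 21.9% of all genes higher and 11.6% lower. Without the first antagonist library 37 members rose and 5 fell, and falls numbered 2 without the third antagonist library and 4 without the second IgG library.

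**Figure D1:**
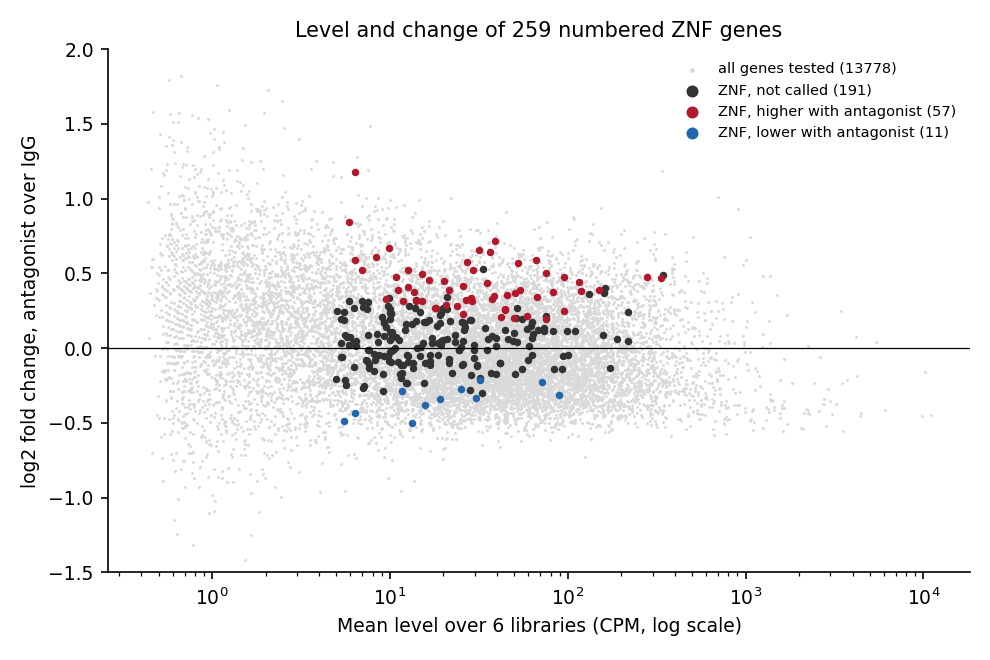
The log2 fold change, antagonist over IgG, is plotted against the mean level over 6 libraries (CPM, log scale), with all 13778 tested genes in grey and the 259 ZNF members in red (57 higher), blue (11 lower) or black (191 not called); 9 genes lie outside the vertical range. Red points outnumber blue ones among low, middle and high levels.

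Levels among the members were mostly low. The mean over 6 libraries ran from 5.00 to 343 CPM with a median of 19.1 CPM, and the median count was 337 reads, against 437 reads over all genes tested. Per kilobase of the longest transcript, which allows genes to be compared, the highest levels were 90.2 CPM per kb for ZNF787, 81.5 for ZNF768, 72.0 for ZNF76 and 63.6 for ZNF316. Without regard to length, the 5 highest were ZNF316, ZNF76, ZNF318, ZNF395 and ZNF598. Split by level into 3 groups of near equal size, 27 of the 87 best counted members rose and 4 fell. Of the middle 86, 20 rose and 4 fell, and of the 86 least counted 10 rose and 3 fell. Over all genes tested 15.6% rose and 20.5% fell, and shares of all genes by level are not reported here. The median SE of the log2 fold change was 0.08, 0.10 and 0.13 in that order, so the same change is less likely to be called at few reads. The median log2 fold changes were 0.12, 0.15 and 0.06.

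ZNF76 is a C2H2 factor that binds the promoter element shared with ZNF143. It had 391, 388 and 389 CPM in antagonist libraries, against 262, 286 and 294 CPM in IgG libraries. The antagonist libraries scarcely differed from each other and lay above all 3 IgG libraries. The log2 fold change was 0.47 ± 0.06 (SE; edgeR quasi-likelihood, adjusted p = 0.000266), and 0.31 once trends on transcript length and GC content were removed. ZNF318, a nuclear protein needed in B cells for the joint expression of IgM and IgD, had 335, 306 and 336 CPM in antagonist libraries, against 215, 243 and 246 CPM in IgG libraries, again with no overlap. Its log2 fold change was 0.47 ± 0.07 (edgeR adjusted p = 0.000458).

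The other 3 members of this highest group did not pass the test. ZNF316 had 417, 354 and 429 CPM in antagonist libraries, against 219, 287 and 350 CPM in IgG libraries; its groups did not overlap, but the IgG libraries were spread and the edgeR adjusted p was 0.0648. Without the third IgG library that p was 0.000347. ZNF598, the ubiquitin ligase that marks collided ribosomes, had 240, 223 and 247 CPM in antagonist libraries, against 163, 208 and 230 CPM in IgG libraries. The groups overlapped and its edgeR adjusted p was 0.112, or 0.00587 without the third IgG library. ZNF395 had 227, 220 and 221 CPM with the antagonist and 204, 222 and 222 CPM with IgG, which did not separate, and 32.9% of its windows were shared, most with FBXO16.

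**Figure D2:**
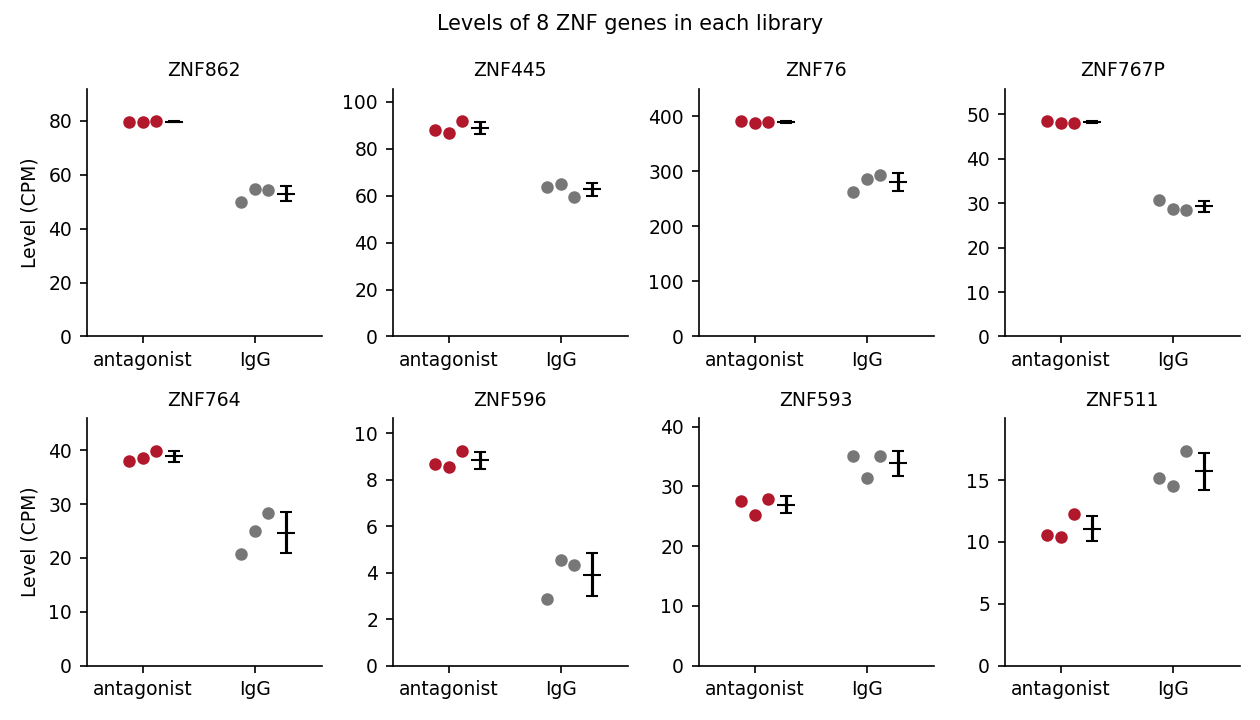
Levels (CPM, linear axes from 0) of 8 ZNF genes are shown in each of the 3 antagonist libraries (red) and 3 IgG libraries (grey), with mean and SD as bars beside the points. ZNF862, ZNF445, ZNF76, ZNF767P, ZNF764 and ZNF596 are higher in all 3 antagonist libraries, and ZNF593 and ZNF511 are lower in all 3.

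KRAB genes made up 139 of the 255 members that have a protein, as found by sequence pattern in GENCODE v29. Of these, 32 rose, 4 fell and 103 were not called, with a median log2 fold change of 0.09. Of the 116 with no KRAB match, 24 rose (20.7%), 6 fell (5.17%) and 86 were not called, with a median of 0.11. These shares stand against 15.6% higher and 20.5% lower over all genes tested. The pattern can miss divergent KRAB domains, so the second class may hold some. Summed, the KRAB genes had 3199, 3108 and 3202 CPM in antagonist libraries, against 2683, 2765 and 2811 CPM in IgG libraries, and the genes without a match had 6568, 6353 and 6497 CPM, against 5434, 5830 and 6141 CPM. Both sums were higher in every antagonist library than in any IgG library.

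Among KRAB genes, ZNF862 had the smallest p. It lies at chr7:149838375-149867479 and is unusual in that the pattern found no C2H2 finger in its protein. Its level was 79.5, 79.7 and 79.9 CPM in antagonist libraries, against 50.0, 54.6 and 54.5 CPM in IgG libraries. The antagonist libraries were almost identical and none came near the IgG libraries, giving 79.7 ± 0.175 against 53.0 ± 2.65 CPM (SD, n = 3 each). The log2 fold change was 0.59 ± 0.06 (edgeR adjusted p = 0.000126), and 0.33 with length and GC trends removed. An antisense gene overlaps 26.3% of its exon length.

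ZNF445 carries both a KRAB and a SCAN domain with 14 fingers, and is known for keeping imprinted genes methylated. It had 88.1, 86.7 and 91.7 CPM in antagonist libraries, against 63.6, 64.8 and 59.6 CPM in IgG libraries, with a wide gap between the groups. The log2 fold change was 0.50 ± 0.06 (edgeR adjusted p = 0.00022), still called but at 0.21 with length and GC trends removed. ZNF589, first described in haematopoietic stem cells, had 60.7, 67.7 and 60.9 CPM in antagonist libraries, against 41.0, 44.8 and 41.5 CPM in IgG libraries. Its groups did not overlap and the log2 fold change was 0.57 ± 0.07 (edgeR adjusted p = 0.000233).

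ZNF764, with 7 fingers at chr16:30553764-30558374, had 38.1, 38.5 and 39.9 CPM in antagonist libraries, against 20.8, 25.03 and 28.3 CPM in IgG libraries. The IgG libraries varied more than the antagonist libraries, and the lowest antagonist value was above the highest IgG value. The log2 fold change was 0.66 ± 0.10 (edgeR adjusted p = 0.000572). ZNF555, with 15 fingers, had 33.4, 30.3 and 33.2 CPM with the antagonist and 21.8, 20.05 and 22.96 CPM with IgG, a log2 fold change of 0.58 ± 0.08 (edgeR adjusted p = 0.00044) with no overlap. ZNF460 had 14.3, 14.3 and 15.9 CPM with the antagonist and 10.3, 10.9 and 9.86 CPM with IgG, again with no overlap (log2 fold change 0.53 ± 0.10, edgeR adjusted p = 0.00212).

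ZNF596 and ZNF8, both KRAB genes with few reads, had the highest fold changes of the members. ZNF596 had 8.68, 8.55 and 9.25 CPM in antagonist libraries, against 2.85, 4.57 and 4.35 CPM in IgG libraries, from 53 to 168 reads per library. All 3 antagonist libraries were at least 1.5-fold above the highest IgG library, and the fold change of 2.26 was the highest of the 259 members (log2 1.18 ± 0.17, edgeR adjusted p = 0.00044). ZNF596 is among the members that shared more than 5% of their windows with another gene. ZNF8 had 8.06, 7.06 and 7.602 CPM in antagonist libraries, against 3.76, 4.57 and 4.35 CPM in IgG libraries, without overlap. Its log2 fold change was 0.84 ± 0.14 (edgeR adjusted p = 0.000979), with 22.2% of windows shared. ZNF783 had 46.0, 39.7 and 47.5 CPM in antagonist libraries, against 24.8, 29.6 and 31.2 CPM in IgG libraries, and shared 28.5% of windows. Its lowest antagonist value was above its highest IgG value (log2 fold change 0.64 ± 0.10, edgeR adjusted p = 0.000572).

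A pair of further KRAB genes among the 12 largest rises lost the call when some single libraries were left out. ZNF461 had 10.5, 8.93 and 10.9 CPM in antagonist libraries, against 5.11, 6.29 and 8.57 CPM in IgG libraries, with a narrow gap between the groups. Its log2 fold change was 0.61 ± 0.17 (edgeR adjusted p = 0.0147), and its adjusted p was 0.0645 without the first antagonist library and 0.0678 without the third. ZNF17 had 8.06, 8.16 and 6.83 CPM with the antagonist and 6.35, 4.39 and 4.47 CPM with IgG, where 1 IgG library came near the antagonist libraries. Its log2 fold change was 0.59 ± 0.17 (edgeR adjusted p = 0.0148), and its adjusted p was 0.0638 and 0.055 without the first or second antagonist library and 0.0574 without the second IgG library. ZNF17 shared 12.6% of its windows.

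Genes with no KRAB match also rose. ZNF70, with 10 fingers, had 11.4, 11.4 and 13.8 CPM in antagonist libraries, against 6.45, 7.71 and 8.88 CPM in IgG libraries. The groups were apart and the log2 fold change was 0.67 ± 0.14 (edgeR adjusted p = 0.00299). ZNF767P, a transcribed pseudogene with no protein, had 48.4, 48.1 and 48.1 CPM in antagonist libraries, against 30.7, 28.6 and 28.5 CPM in IgG libraries. It had the smallest p of all 259 members (log2 fold change 0.72 ± 0.07, edgeR adjusted p = 9.02e-05), and its libraries scarcely varied within a group. Of the other 3 pseudogenes, ZNF252P fell and ZNF271P and ZNF815P were not called.

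SCAN domains, which let these proteins pair with each other, were found in 18 members, 9 of them with KRAB as well. Of the 18, 4 (22.2%) rose (ZNF445, ZNF397, ZNF500 and ZNF24) and 14 were not called. Over all 259 members 22.01% rose and 4.25% fell, against 15.6% and 20.5% of all genes tested. No SCAN member fell: 0 were lower by edgeR, 0 at an unadjusted p below 0.05 and 0 by DESeq2. With so few members falling, 0 of 18 says little about the class. The median log2 fold change was 0.17. The calls of ZNF24 and ZNF500 were lost without the first antagonist library (adjusted p = 0.0949 and 0.0919) and without the third IgG library (0.0842 and 0.0665). That of ZNF24 was also lost without the second antagonist or second IgG library (0.222 and 0.114), and that of ZNF500 without the third antagonist library (0.12) or with length and GC trends removed (0.678). ZNF397 had 25.1, 25.3 and 22.9 CPM in antagonist libraries, against 19.4, 17.9 and 18.7 CPM in IgG libraries, with the groups apart (log2 fold change 0.39 ± 0.08, edgeR adjusted p = 0.00377). The only member with a BTB domain by its synonyms, ZNF131, was not called, at 24.2, 28.8 and 27.3 CPM with the antagonist and 32.7, 31.3 and 27.1 CPM with IgG. ZNF274, which carries SCAN and KRAB domains and is known to bind the 3′ ends of ZNF genes, was picked after its values were seen. It had 26.6, 27.1 and 28.3 CPM with the antagonist and 27.2, 22.4 and 25.6 CPM with IgG, and its groups overlapped (edgeR adjusted p = 0.291).

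**Figure D3:**
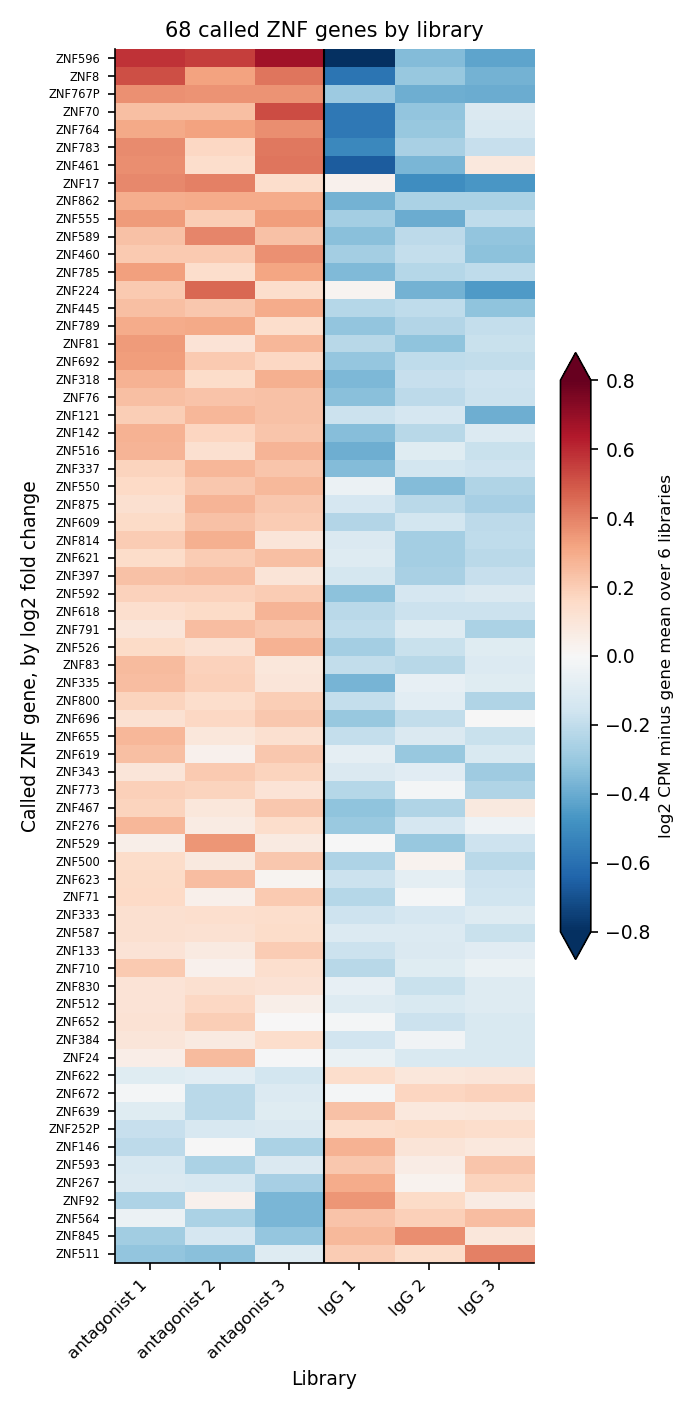
Each row is 1 of the 68 called ZNF genes, ordered by log2 fold change, and each column 1 library, with antagonist libraries left of IgG libraries; colour gives log2 CPM minus the gene's mean over the 6 libraries. The 57 genes that rose are mostly red on the left and the 11 that fell mostly blue there, with ZNF596 the deepest in colour.

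Of the 11 falls, few held under other settings. ZNF511, with 3 fingers and no KRAB match, had 10.6, 10.4 and 12.2 CPM in antagonist libraries, against 15.2, 14.5 and 17.4 CPM in IgG libraries. Its groups were apart and it had the largest fall of the 11 (log2 fold change -0.50 ± 0.11, edgeR adjusted p = 0.0044). A read-through transcript, ZNF511-PRAP1, shares its sequence, and 32.8% of its exon length is overlapped by an antisense gene. ZNF593, a single-finger protein whose yeast counterpart acts in making the large ribosomal subunit, had 27.6, 25.3 and 27.9 CPM in antagonist libraries, against 35.1, 31.4 and 35.1 CPM in IgG libraries. No antagonist library reached the IgG libraries (log2 fold change -0.33 ± 0.08, edgeR adjusted p = 0.00685), and its exons lie wholly over an antisense gene. ZNF511 and ZNF593 were the only 2 of the 11 falls called under each of the 11 alternative settings, against 35 of the 57 rises.

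The 4 KRAB genes that fell were ZNF845, ZNF564, ZNF92 and ZNF267. ZNF845, with 26 fingers, had 4.46, 4.91 and 4.35 CPM in antagonist libraries, against 6.45, 6.998 and 5.75 CPM in IgG libraries (log2 fold change -0.49 ± 0.14, edgeR adjusted p = 0.0199). The groups did not overlap, but adjusted p was 0.0685 and 0.0743 without the first or the third antagonist library and 0.0904 without the second IgG library. ZNF267 had 17.5, 17.3 and 15.8 CPM in antagonist libraries, against 23.2, 19.3 and 21.4 CPM in IgG libraries (log2 fold change -0.34 ± 0.10, edgeR adjusted p = 0.0149), and an adjusted p of 0.0728 without the third antagonist library. ZNF564 (log2 fold change -0.44 ± 0.14) shared 67.0% of its windows with another gene, and its adjusted p was 0.067 and 0.103 without the second or the third antagonist library and 0.0598 and 0.0539 without the second or the third IgG library. ZNF92 (-0.38 ± 0.12) was at -0.16, adjusted p 0.181, with length and GC trends removed, and its adjusted p was 0.103 and 0.121 without the first or the third antagonist library and 0.0758 and 0.0631 without the first or second IgG library.

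Of the falls without KRAB, ZNF146, a protein made almost wholly of 10 fingers, had 76.0, 88.0 and 73.8 CPM in antagonist libraries, against 107, 94.5 and 93.4 CPM in IgG libraries. The second antagonist library came closest to the IgG libraries, and the log2 fold change was -0.31 ± 0.08 (edgeR adjusted p = 0.0093; 0.0589 and 0.0594 without the first or the third antagonist library). ZNF622, which helps mature the large ribosomal subunit, had 29.8, 30.1 and 28.8 CPM with the antagonist and 35.1, 33.9 and 34.0 CPM with IgG (log2 fold change -0.22 ± 0.07, edgeR adjusted p = 0.0289). Its groups were apart, yet its adjusted p lay above 0.05 without any 1 of the 6 libraries, at 0.108 at most. ZNF639 (-0.27 ± 0.08) and ZNF252P (-0.28 ± 0.10) likewise lost the call in 7 and 11 of the 11 alternatives, with adjusted p of at most 0.099 and 0.14. ZNF672 (-0.22) was the only fall whose groups overlapped, at 70.3, 61.2 and 65.7 CPM with the antagonist and 70.1, 79.7 and 80.6 CPM with IgG, and its call was lost without the second or the third library of either group (adjusted p from 0.0977 to 0.144).

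The number of fingers, from 0 to 31 with a median of 9, showed no steady order. Among the 67 members with 6 to 9 fingers 17 rose (25.4%) and 1 fell (1.49%), against 15.6% and 20.5% of all genes tested. Among the 70 with 10 to 13 fingers 17 rose (24.3%) and 3 fell (4.29%). With 14 or more, 10 of 51 rose (19.6%) and 3 fell (5.88%). With 3 to 5, 8 of 44 rose (18.2%) and 2 fell (4.55%), and with at most 2, 4 of 23 rose (17.4%) and 1 fell (4.35%). ZNF142, which has the most fingers, rose (23.3 ± 0.864 CPM with the antagonist, 17.05 ± 1.36 CPM with IgG, SD, n = 3 each; log2 fold change 0.45 ± 0.09, edgeR adjusted p = 0.00232). Members with more than 5% of windows shared rose in 10 of 56 cases (17.9%) and fell in 3 (5.36%), and the others in 47 of 203 (23.2%) and 8 (3.94%). Of the 9 members higher by more than 1.5-fold, 5 were among those 56 and 4 among the 203. Log2 fold changes ran from -0.50 to 1.18 in the 56 and from -0.38 to 0.72 in the 203. What shared reads add to these changes was not tested. In the 155 members with neither shared windows nor antisense overlap above 5%, 33 rose (21.3%) and 5 fell (3.23%).

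Members had longer transcripts and lower GC content than other genes. The median longest transcript was 4237 bases over members and 3445 bases over all genes tested, and the median GC content 46.1% and 49.4%. With the trends of fold change on both removed, 68 members rose and 21 fell, and the median log2 fold change was 0.06 over members and -0.05 over all genes. The shares of all genes called with that step are not reported here, so these counts cannot be set against those of the main test. ZNF395 then had a log2 fold change of -0.09, in place of 0.04 without that step.

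**Figure D4:**
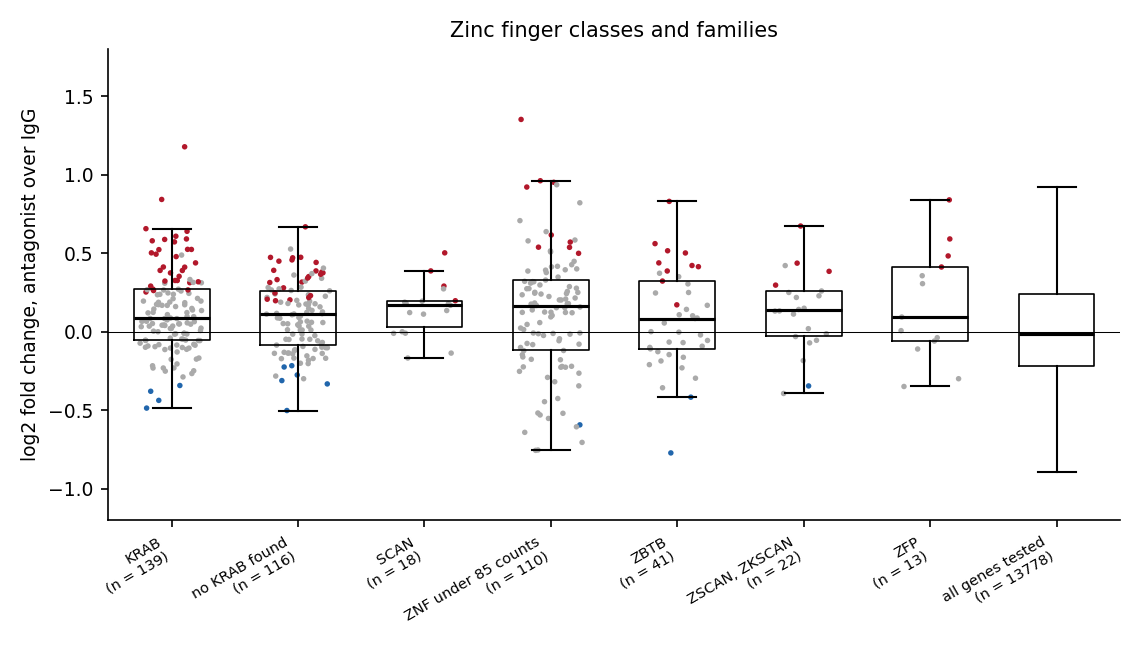
The log2 fold change, antagonist over IgG, of each gene is plotted by class, with boxes from the first to the third quartile around the median and whiskers to the last value within 1.5 box lengths; red points are called higher and blue lower. All classes and families shown have a median above the -0.01 of all 13778 genes tested.

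Chromosome 19 held 94 members, and 18 of them rose and 3 fell, and their median log2 fold change was 0.12; of the 165 on other chromosomes 39 rose and 8 fell, with a median of 0.09. Grouping members whose gaps to the next were at most 250000 bases gave 15 clusters of 4 or more, with 98 members, of which 18 rose and 3 fell. The run with the most members, chr19:57240632-57916592, held 15, 6 of which rose (ZNF460, ZNF17, ZNF773, ZNF550, ZNF587 and ZNF814), with a median of 0.24. The call of ZNF773 was lost without any 1 antagonist library, without the third IgG library and with DESeq2's test (adjusted p from 0.0690 to 0.107), and that of ZNF814 without the first or the second antagonist library (0.0514 and 0.0547). In that run 0 members fell by edgeR, at an unadjusted p below 0.05 or by DESeq2. Over all 259 members 22.01% rose and 4.25% fell, against 15.6% and 20.5% of all genes tested. With so few falls, 0 of 15 says little about the run. The highest median of the clusters, 0.27, was at chr19:55476617-55645623, where none of the 7 members was called. On chromosome 7, chr7:149069641-149867479 held 10 members, 4 of which rose (ZNF783, ZNF767P, ZNF467 and ZNF862), with a median of 0.20. ZNF467 lost its call without any 1 antagonist library, without the first or the second IgG library, with DESeq2's test and with length and GC trends removed (adjusted p from 0.0685 to 0.198). The 9 members at chr16:30378312-30787205 had a median of -0.10, although ZNF764 and ZNF785 within it rose. ZNF785 had 36.3, 31.9 and 36.1 CPM with the antagonist and 22.6, 24.7 and 25.2 CPM with IgG (log2 fold change 0.52 ± 0.08, edgeR adjusted p = 0.000699). At chr19:52013324-52325922 the 4 members had values from -0.29 to -0.01 and none was called. Clusters were formed by position alone, but they are described after their values were seen.

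Other zinc finger families also had more rises than falls, against 15.6% higher and 20.5% lower over all genes tested. Of 41 ZBTB genes tested, 10 rose (24.4%) and 2 fell with a median log2 fold change of 0.08, of 22 ZSCAN and ZKSCAN genes 4 rose (18.2%) and 1 fell with a median of 0.14, and of 13 ZFP genes 4 rose (30.8%) with a median of 0.09. Of those 13, 0 fell by edgeR, at an unadjusted p below 0.05 or by DESeq2. The 110 numbered ZNF genes under 85 reads that were tested had 9 rises (8.18%) and 1 fall (0.909%), with a median of 0.16, so both shares were below those of all genes tested. No difference between these families and the numbered ZNF genes was tested.

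The genes of the machinery that KRAB proteins recruit were called no more often than other genes. Of 48 cofactors tested, 7 rose (14.6%), 9 fell (18.8%) and 32 were not called, against 15.6% higher and 20.5% lower over all genes tested. The cofactors were well counted, with a median of 1500 reads. Among the 10464 genes other than members with a mean of at least 85 reads, 17.2% rose and 26.3% fell. The median log2 fold change of the cofactors was -0.05. TRIM28, the KRAB corepressor itself, had 764, 693 and 773 CPM in antagonist libraries, against 691, 781 and 885 CPM in IgG libraries, with the groups overlapping (log2 fold change -0.08 ± 0.08, edgeR adjusted p = 0.482). SETDB1, the histone H3 lysine 9 methyltransferase of the complex, had 105, 103 and 100 CPM with the antagonist and 90.9, 89.7 and 94.5 CPM with IgG, with the groups apart (0.17 ± 0.06, edgeR adjusted p = 0.0381). That call was lost without any 1 antagonist library (0.151, 0.089 and 0.078), without the second IgG library (0.1), and at 0.08 with length and GC trends removed, where TRIM28 was lower (-0.23). Of the HP1 genes, CBX5 rose (0.46 ± 0.06, edgeR adjusted p = 0.000283), whereas CBX1 (-0.30 ± 0.08) and CBX3 (-0.28 ± 0.07) fell. The DNA methyltransferase DNMT3A (0.42 ± 0.07), GATAD2B of the NuRD complex (0.37 ± 0.07) and RCOR1 (0.17 ± 0.06) also rose. The NuRD genes MBD2 (-0.39 ± 0.07) and HDAC2 (-0.39 ± 0.07) fell. The call of RCOR1 was lost without any 1 antagonist library or without the second IgG library (adjusted p from 0.0912 to 0.119), that of CBX1 without the second IgG library (0.0585) and that of CBX3 without the third antagonist library (0.0519). With length and GC trends removed CBX3 was at -0.06 and DNMT3A at 0.14. Rises among the cofactors numbered 14 with library totals as scaling, 3 without the first or the third antagonist library, 4 without the second and 11 without the third IgG library, and falls numbered 5 with library totals or without the third antagonist library.

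The agonist table lists 904 genes, 12 of them numbered ZNF genes and 10 of those members; ZNF569 and ZNF697 had means of 79.3 and 56.8 reads in the first set and were below the threshold. Almost all of them were called, 99.9% (55.6% higher and 44.2% lower), so the list is taken as one picked for change, and a call in it says little about a member. Adjusted p-values cover the listed genes only, and the zero point of its fold changes is uncertain, with a median log2 fold change of 0.19 over the list. Levels in this set are CPM of the listed genes' reads and are not comparable with those above. With the agonist, ZNF76, ZNF219, ZNF655, ZNF706, ZNF815P and ZNF697 were higher and ZNF510, ZNF569, ZNF503, ZNF22, ZNF710 and ZNF598 lower. With DESeq2's size factors, and likewise with its test, 3 members were called higher in place of 5.

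ZNF510, a KRAB gene with 9 fingers, had 20.2, 25.01 and 22.7 CPM of listed reads in agonist libraries, against 41.1, 37.9 and 45.9 in their IgG libraries. The groups were far apart (log2 fold change -0.88 ± 0.18, edgeR adjusted p = 0.000771). With the antagonist its value was 0.05 ± 0.14, with overlapping groups. For the difference between the antibodies the first set was scaled on the shared genes alone, so the printed fold changes do not subtract to it exactly. That difference, antagonist minus agonist, was 0.99 (edgeR interaction adjusted p = 0.00106). Such a difference was called for 8 of the 10 members listed, and for 58.8% of the 901 genes shared by both tables (32.4% above zero and 26.4% below). As the list is taken as picked for change with the agonist, such differences are partly built in.

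ZNF598 had 545, 559 and 555 CPM of listed reads in agonist libraries, against 743, 734 and 637 in their IgG libraries, with no overlap (log2 fold change -0.35 ± 0.07, edgeR adjusted p = 0.000764). ZNF710 had 356, 316 and 325 CPM of listed reads with the agonist, against 439, 433 and 405 with IgG, also apart (-0.36 ± 0.08, edgeR adjusted p = 0.00103). ZNF710 rose with the antagonist, at 109, 96.4 and 103 CPM against 80.9, 88.1 and 91.0 CPM with IgG (0.25 ± 0.07, edgeR adjusted p = 0.0134). That rise was at 0.02 (adjusted p = 0.764) with length and GC trends removed, and its adjusted p was 0.0872 and 0.0564 without the first or the third antagonist library. The difference between the antibodies was 0.67 for ZNF710 (edgeR interaction adjusted p = 4.8e-05) and 0.66 for ZNF598 (0.000422).

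ZNF76 and ZNF655 were called higher with both antibodies, but neither agonist call held with DESeq2's size factors or its test. For ZNF655 the adjusted p was 0.0843 in edgeR with those factors and 0.101 in DESeq2's test. For ZNF76 it was 0.139 in DESeq2's test, and its agonist value of 0.21 lay near the list median of 0.19. ZNF76 had 548, 552 and 603 CPM of listed reads with the agonist, against 511, 482 and 476 with IgG, close but not overlapping (log2 fold change 0.21 ± 0.07, edgeR adjusted p = 0.00967; 0.126 with DESeq2's size factors). ZNF655 had 143, 154 and 143 CPM of listed reads with the agonist, against 114, 107 and 134 with IgG, also apart (0.31 ± 0.11, edgeR adjusted p = 0.0148; 0.0519 without the second agonist library and 0.0621 without the second IgG library). With the antagonist ZNF655 had 45.02, 39.9 and 41.0 CPM, against 32.8, 34.5 and 33.1 CPM with IgG (0.33 ± 0.07, edgeR adjusted p = 0.00446). ZNF706, a short protein with 1 finger, was higher with the agonist, at 418, 390 and 388 CPM of listed reads against 310, 303 and 326 with IgG (0.35 ± 0.07, edgeR adjusted p = 0.000964). With the antagonist it had 79.6, 81.0 and 79.7 CPM, against 87.4, 88.1 and 88.9 CPM with IgG, which did not overlap but missed the threshold (adjusted p = 0.07).

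**Figure D5:**
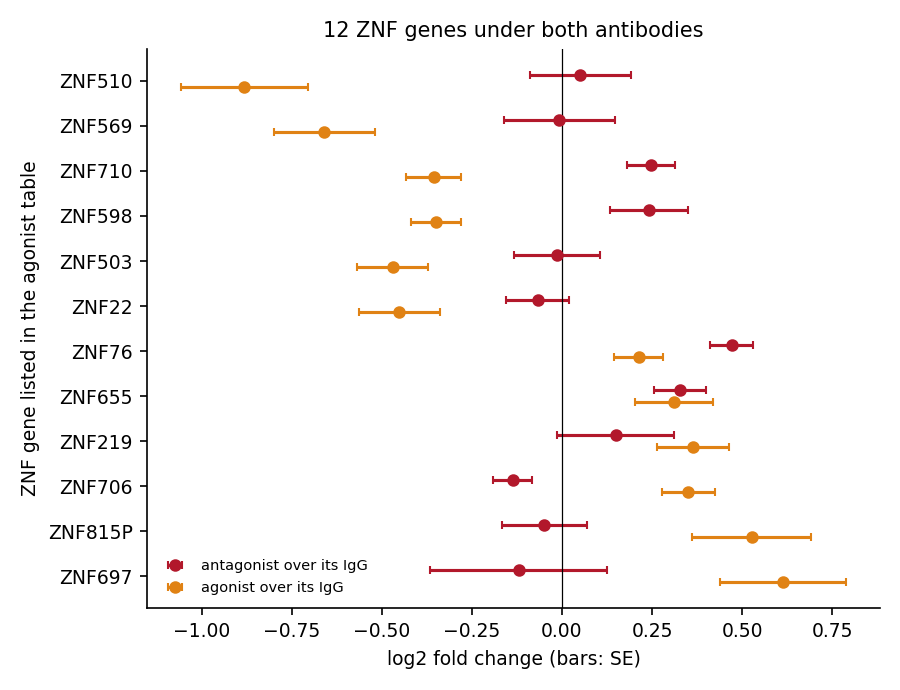
Points give the log2 fold change of the 12 ZNF genes in the agonist table, with SE as bars, for antagonist over its IgG (red, upper) and agonist over its IgG (orange, lower). ZNF510, ZNF569, ZNF503, ZNF22, ZNF710 and ZNF598 lie left of zero with the agonist, and ZNF655 is the gene whose points nearly coincide.

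At the edge of the rule, the members just inside were ZNF230, ZNF850 and ZNF181 with means of 88.0, 88.5 and 93.2 reads, and the genes just outside were ZNF354A, ZNF169 and ZNF514 with 84.2, 83.8 and 83.7. With a threshold of 170 reads, 204 members were left and their median log2 fold change was 0.12. The flattest members were ZNF197, ZNF557, ZNF195 and ZNF394. ZNF197, with KRAB, SCAN and 22 fingers, had 13.4, 15.1 and 14.3 CPM with the antagonist and 14.8, 14.9 and 12.9 CPM with IgG.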

How the data were processed

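RNA of U937 cells was sequenced in 12 libraries. For both sets the authors deposited a table of raw counts, 1 row a gene, not normalized. HISAT2 and Cufflinks were used with build hg38, per the submitters' processing notes. Not given in the sources used here are their versions, the counting program, the annotation and the strand setting. Columns carry a group name and no replicate number, so library numbers follow column order and pair nothing. In the antagonist table, 570 of 28395 rows name no gene; they held 0.0981% to 0.105% of reads in antagonist libraries and 0.0678% to 0.0767% in IgG libraries and were left out. In the agonist table the listed genes hold 2764479 to 3522203 reads per library, which is not the library depth.

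Counts were tested with edgeR 4.0.16 (filterByExpr, TMM, robust quasi-likelihood) in R 4.3.3 on each whole table, after a test on simulated data, with Benjamini-Hochberg adjustment over all genes tested and a threshold of 0.05. All 259 members passed the filter. CPM are TMM-scaled, and the SE is the fold change over the root of F. The difference between antibodies was an interaction over 901 shared genes, the sets being scaled separately and on those genes alone. Domains and fingers were found by pattern in GENCODE v29 proteins (KRAB at 13 of 20 anchors, SCAN at 17 of 22), and coordinates and promoters come from RefSeq GRCh38.p14. Length and GC content were known for 97.7% of tested genes. Alternatives were DESeq2 1.42.0 size factors or test, library totals, no filter, removed length and GC trends, 170 reads as threshold, and each library left out.

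The members, the lists and the alternatives were chosen with earlier results of these data known. Members named were those in the agonist table, the 12 largest called rises and falls without overlap, the 5 highest, the 3 on each side of the threshold, the 4 flattest, and the 2 called members with the smallest p per domain class and direction. TRIM28, SETDB1 and up to 5 called cofactors per direction were added, and any other gene was picked after its values were seen. Some genes that these rules name are not reported here.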

Additional observations from a re-analysis of the deposited data

Results flagged for a closer look

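For 9 of the 12 ZNF genes listed in the agonist table, the antagonist and agonist effects differed in edgeR's interaction test (adjusted p below 0.05 over 901 shared genes, of which 58.8% were called; 32.4% above zero and 26.4% below). The difference, antagonist minus agonist on the log2 scale, was 0.99 for ZNF510, 0.71 for ZNF569, 0.67 for ZNF710, 0.66 for ZNF598, 0.52 for ZNF503, 0.45 for ZNF22 and 0.32 for ZNF76. It was -0.51 for ZNF815P and -0.43 for ZNF706. The list is taken as one picked for change with the agonist. A gene unchanged by the antagonist therefore tends to show a difference, and the count says little about ZNF genes. The antagonist values of ZNF510, ZNF569, ZNF503, ZNF22 and ZNF815P lay between -0.07 (ZNF22) and 0.05 (ZNF510).

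ZNF569, a KRAB zinc finger gene below the 85-read threshold, had 48.2, 52.2 and 49.0 CPM of listed reads with the agonist, against 90.6, 71.2 and 73.9 with IgG, and 4.68, 4.798 and 4.02 CPM with the antagonist, against 4.19, 4.804 and 4.59 CPM with IgG. ZNF503 had 158, 136 and 156 CPM of listed reads with the agonist, against 189, 215 and 219 with IgG. Its antagonist libraries, at 38.6, 29.1 and 37.4 CPM, overlapped their IgG libraries, at 30.1, 38.0 and 38.1 CPM. The difference for ZNF22 was no longer past the threshold without the second antagonist library (adjusted p = 0.0534) or the third IgG library of the agonist set (0.0622). That for ZNF815P, a pseudogene that shares 36.1% of its windows, was lost without any of 8 single libraries, at an adjusted p of 0.13 at most, and with DESeq2's size factors (0.0852). The sets share no control library, and what else separates them besides the antibody cannot be told apart from it. The zero point of the agonist set was not settled by these data.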

How the results depend on the processing

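Under 11 alternative settings no called ZNF member changed sign, and 37 of the 68 calls (35 higher, 2 lower) were made under each of them. Rises numbered 87 with library totals and 37 to 74 with 1 library left out, against 57. Falls numbered 2 with library totals, 5 with DESeq2's test, 21 with length and GC trends removed and 2 to 9 with 1 library left out, against 11. Shares of all genes called are given for the main setting and library totals only, so counts under the other settings stand without that comparison. The median log2 fold change of the members (0.0969) was 0.1148 with DESeq2's size factors, 0.176 with library totals, 0.1102 with DESeq2's test, 0.0889 with no filter, 0.064 with length and GC trends removed, 0.1165 at 170 reads, and 0.087 to 0.1261 with 1 library left out. Members called higher with the agonist numbered 3 with DESeq2's size factors and 3 with its test, against 5. Members called with a difference below zero numbered 1 with DESeq2's size factors per set and 1 to 2 with 1 library left out, against 2. Cofactor rises numbered 14 with library totals and 3 to 11 with 1 library left out, against 7, and falls 5 with library totals and 5 to 10 with 1 library left out, against 9. In the ZBTB, ZSCAN, ZKSCAN and ZFP families together, rises numbered 11 to 20 with 1 library left out, against 18, and falls 1 with library totals and 1 to 2 with 1 library left out, against 3. Of 1454 values of single genes under alternatives, 1257 stayed on their side of the threshold, where values not called may have changed sign, 179 lost the call, 17 gained it, and 1 was called with the opposite sign (ZNF395, -0.0936 with length and GC trends removed). The causes were not tested.

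No paired analysis was possible because the columns carry no replicate numbers. A gene near 85 reads has a counting error that limits it to large changes, and reads shared between related ZNF genes cannot be assigned from these tables.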
